A study of Mus musculus with 12 samples.

Results

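The genes of the Wnt pathway were examined in cochlear glial cells of the mouse and in the cultures differentiated from them. They are 61 of the 55487 genes in the expression table. Genes were chosen by symbol and not by their values. They comprise 19 Wnt ligands, 10 frizzled receptors, the co-receptors Lrp5 and Lrp6 with β-catenin (Ctnnb1), 7 R-spondins and Lgr receptors, 9 secreted antagonists, 4 TCF/LEF transcription factors, and 9 genes made up of the scaffold Axin1 and the feedback genes Axin2, Nkd1, Nkd2, Notum, Znrf3, Rnf43, Sp5 and Apcdd1. RNA was sequenced after poly(A) selection from 12 cultures in 4 groups of 3. All cultures came from the cochlea of postnatal day 4 mice on a mixed C57Bl6 and FVB/N background, with no transgene or deletion given in the labels, and cells of several mice of both sexes were pooled at dissection. Spheres were the starting population, grown in DMEM/F12 with EGF, IGF, heparan sulfate and bFGF at 10 ng/ml. For the other groups, spheres were plated and kept for 14 days in one of 3 media. SCDM was DMEM/F12 with BDNF and NT3 at 50 ng/ml each. SCDM/FGF was SCDM with bFGF at 100 ng/ml. FIBCL was Neurobasal medium with bFGF at 100 ng/ml (the labels also list 50 ng/ml), LIF at 1000 U/ml, the adenylyl cyclase activator Forskolin and the neurogenic compound ISX9 at 20 μM each, the GSK3 inhibitor CHIR99021 at 10 μM and the BET bromodomain inhibitor I-BET at 1 μM, with neither BDNF nor NT3 listed. FIBCL therefore differed from SCDM in base medium, growth factors and small molecules at once, and the contribution of CHIR99021 alone cannot be told apart from that of the others. The columns of the FIBCL libraries are headed FIBC, a name that the study also gives to the mixture without LIF. Their labels name FIBCL, and nothing in the table shows if LIF was in the medium.

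In canonical Wnt signaling, a Wnt ligand binds a frizzled receptor together with Lrp5 or Lrp6, and this stops a destruction complex built on Axin and the kinase GSK3 from marking β-catenin for degradation. β-catenin then accumulates and acts with TCF/LEF factors in the nucleus. R-spondins bind Lgr receptors and keep the ubiquitin ligases Znrf3 and Rnf43 from removing frizzleds, while secreted antagonists such as the Sfrp proteins, Dkk1 and Wif1 act outside the cell. CHIR99021 inhibits GSK3 and so acts inside the cell, below ligands and receptors. Several genes that canonical signaling switches on, Axin2 first among them, encode inhibitors of the pathway and are widely used as its readout. In the developing cochlea the pathway is known for roles in proliferation and in hair cell and glial development.

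Levels are given as scaled TPM, a measure of transcript share corrected for transcript length by the authors' quantification and rescaled here so that a trimmed mean of log2 ratios over abundant genes was equal in every library. Differences are on the log2(scaled TPM + 1) scale with their standard errors, and for genes near or below 1 TPM this scale understates the change. A gene is said to rise or fall only where the limma adjusted p was under 0.05 and the log2 difference was at least 1 in size. Total TPM per library ranged from 899295 to 911076 for FIBCL and from 982067 to 994845 elsewhere. Depth in reads is unknown, and each library had 21625 to 22281 genes above 0. The labels call the replicates biological but do not say that they came from separate animals, so p-values measure the spread between these cultures. The 6 glial markers used, among them Sox10, summed to 384 to 405 in spheres, 132 to 157 in SCDM, 121 to 136 in SCDM/FGF and 13.0 to 16.2 in FIBCL, and each fell from SCDM to FIBCL. The 8 neuronal markers summed to 12.2 to 13.1 in spheres, 16.4 to 21.7 in the 2 SCDM media and 395 to 422 in FIBCL, and 6 of the 8 were tested and rose from SCDM to FIBCL. Of these, Snap25 and Elavl3 passed the limit of 1 TPM through FIBCL alone and had to differ. Dcx was not tested and was at most 0.0739 in FIBCL and 0.0857 elsewhere. The 8 mesenchymal markers, among them collagen genes and Pou3f4, summed to 2594 to 2641 in spheres, 5756 to 5990 in SCDM, 5280 to 5647 in SCDM/FGF and 61 to 62.1 in FIBCL, and all 8 fell. Macrophage markers were at 90.8 to 109 in spheres, 1238 to 1360 in SCDM, 1335 to 1468 in SCDM/FGF and 158 to 183 in FIBCL, and 7 of 8 fell from SCDM to FIBCL. Cd68 made up most of the FIBCL sum, and without it, a choice made after the values were seen, the other 7 summed to 57.7 to 66.7 in spheres, 1047 to 1170 in SCDM, 1112 to 1231 in SCDM/FGF and 6.05 to 6.85 in FIBCL. The 5 markers of cycling cells summed to 64.4 to 67.5 in spheres, 172 to 189.9 in SCDM, 132 to 199 in SCDM/FGF and 2.13 to 2.80 in FIBCL, and all 5 fell. The glial, neuronal, mesenchymal and cycling sums of FIBCL lay outside those of all other groups. Its macrophage sum lay above spheres and below both SCDM media, and without Cd68 it was the lowest. Each comparison of FIBCL with another group therefore also holds a difference in these markers, and their part in the results below was not tested. In such bulk samples, fewer cells of a type and less RNA per cell cannot be told apart.

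Of the 61 genes, 48 passed the limit of 1 TPM in at least 3 libraries. From SCDM to FIBCL, 29 of these 48 (60.4%) were called, with 16 that rose and 13 that fell, against 29.3% of all 16016 genes tested (13.2% higher and 16.2% lower). The median size of the log2 difference was 1.25 among the 48 and 0.57 among all genes. Against SCDM/FGF, the control that shares bFGF with FIBCL, 17 rose and 9 fell, beside 27.8% of all genes called in either direction. Against spheres, 13 rose and 14 fell, beside 28.1% of all genes. At the adjusted p alone, with no limit on size, 37 of the 48 passed against SCDM, 39 against SCDM/FGF and 43 against spheres, beside 71.7%, 70.7% and 71.6% of all genes. FIBCL was higher than each of the 3 other groups for 11 genes, beside 8.15% of all genes. These were Axin2, Nkd1, Notum, Sp5, Wnt11, Wnt7b, Wnt4, Fzd6, Lgr6, Rspo4 and Sfrp1. For 7 genes (Nkd2, Wnt5a, Wnt10b, Fzd8, Rspo3, Sfrp4 and Wif1) it was lower than each, beside 8.32%. Against spheres, Wnt5a only just passed the limit, and the difference of Notum was 0.86 without rescaling. The 3 comparisons share the FIBCL libraries, so these overlaps are a count and no separate evidence. In scaled TPM, the FIBCL libraries lay above all 9 others for 19 of the 48 genes, beside 23.6% of all genes tested. They lay below all 9 others for 13 genes, a share near the 27.3% of all genes. Such a position was thus common among all genes, and below it only describes the values. Wnt7b, Wnt4 and Rspo4 passed the limit of 1 TPM through FIBCL alone and had to differ.

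**Figure D1:**
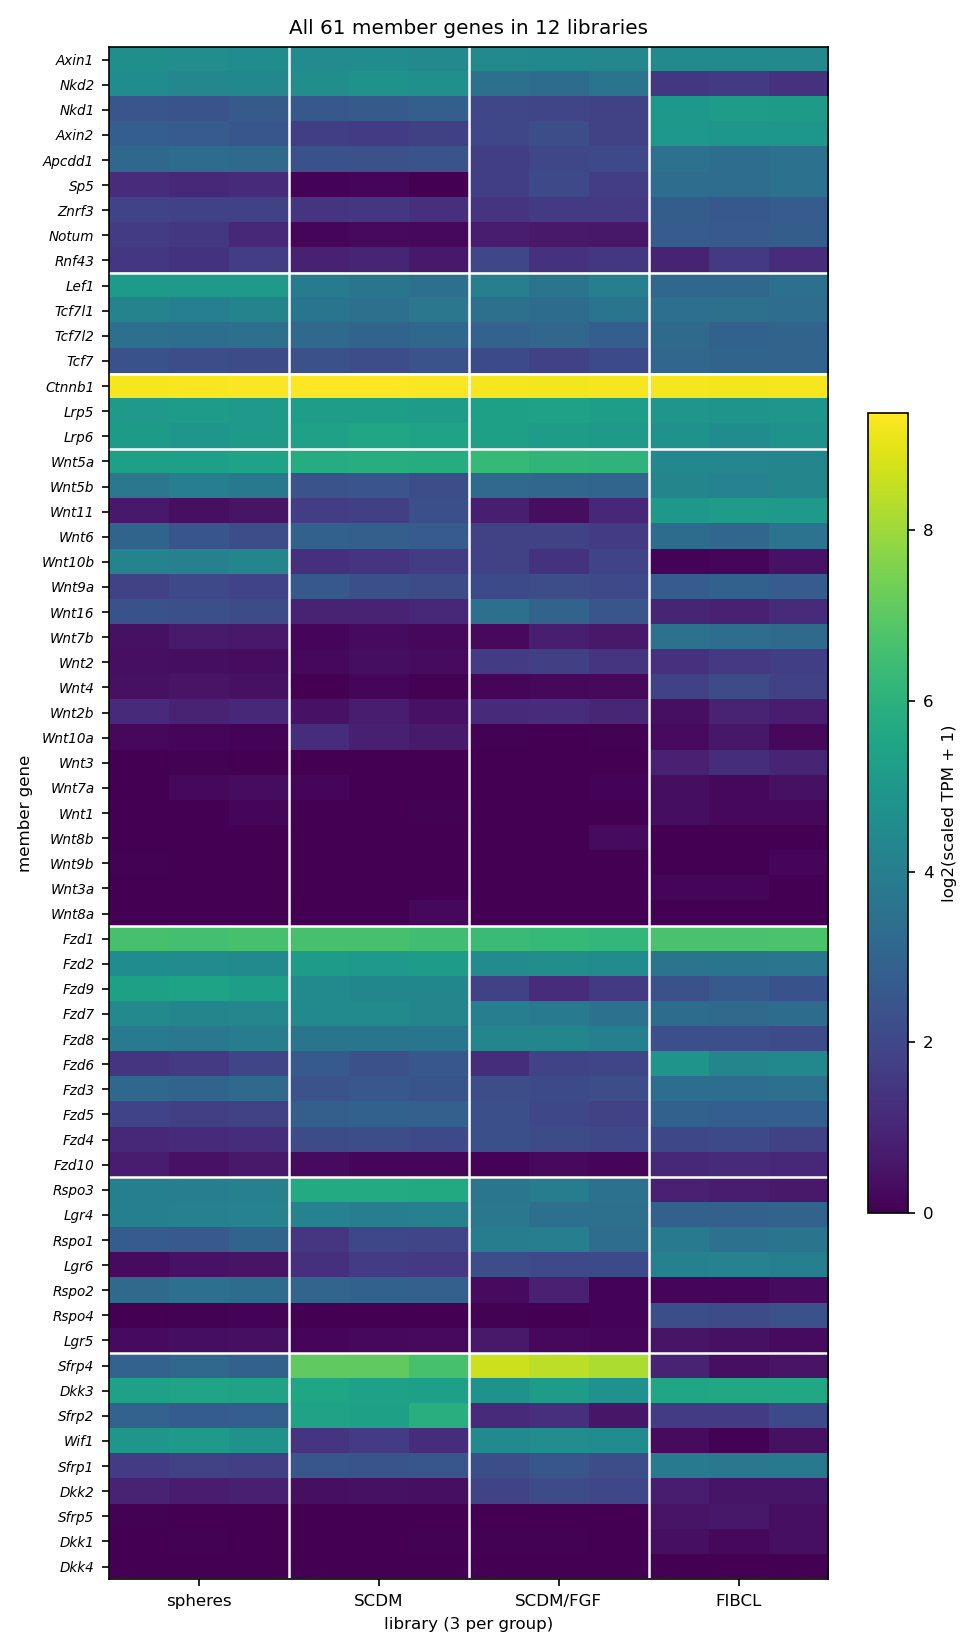
Levels of all 61 genes, as log2(scaled TPM + 1) on the color scale, in each of the 12 libraries (columns, 3 per group), with genes grouped by role and ordered by mean level within a role. Ctnnb1 is the brightest row in every library, Axin2 and Nkd1 are bright in FIBCL, and Sfrp4 is brightest in SCDM/FGF and near 0 in FIBCL.

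**Figure D2:**
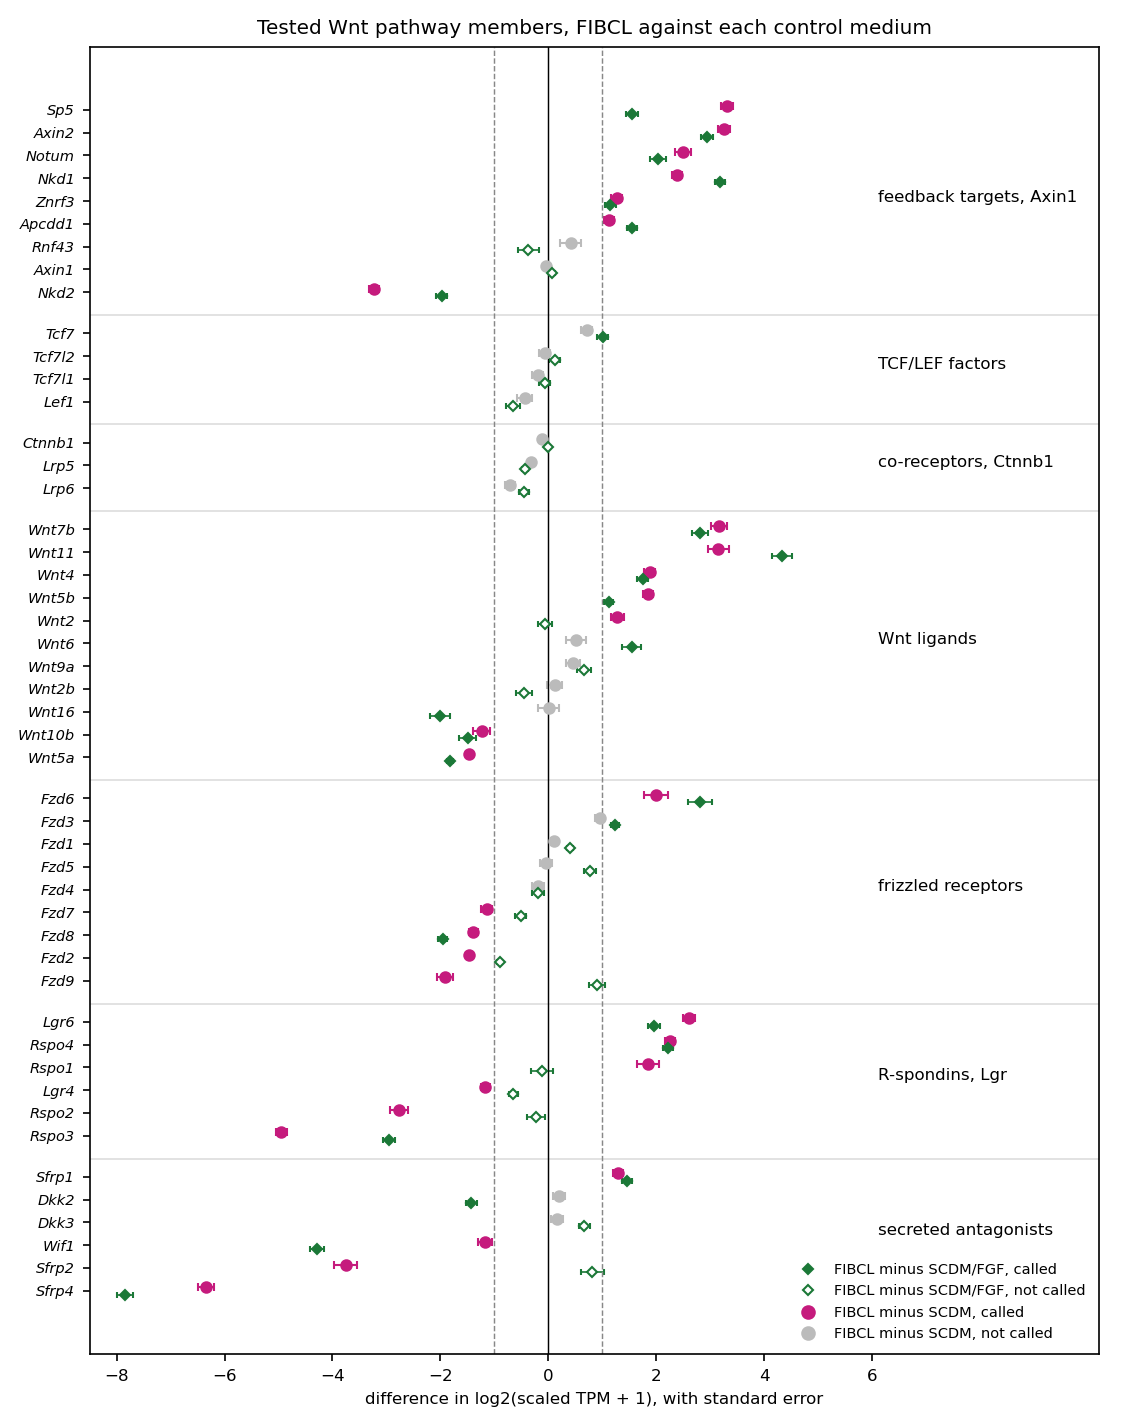
Log2 differences with standard errors for the 48 tested genes, ordered by role and then by the difference between FIBCL and SCDM. Circles show FIBCL minus SCDM, diamonds FIBCL minus SCDM/FGF, magenta circles and filled diamonds mark called genes, and dashed lines mark a log2 difference of 1 in either direction. The differences from SCDM run from −6.34 for Sfrp4 to 3.31 for Sp5.

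Of the feedback genes, 6 rose in FIBCL against SCDM and against SCDM/FGF alike, 1 fell in both, and Axin1 and Rnf43 were called in neither, beside 29.3% and 27.8% of all genes called. Axin2, a scaffold of the destruction complex and a direct target of β-catenin with TCF/LEF, read 5.91, 5.57 and 4.66 in spheres, 2.31, 2.13 and 2.39 in SCDM, 3.03, 3.82 and 2.59 in SCDM/FGF and 30.9, 29.9 and 30.4 in FIBCL. Every FIBCL library was above every other library, with a log2 difference of 3.26 ± 0.11 (SE, limma adjusted p = 3.03e-10) from SCDM. The difference was 2.93 ± 0.11 (SE, limma adjusted p = 7.57e-10) from SCDM/FGF and 2.30 ± 0.11 (SE, limma adjusted p = 6.28e-09) from spheres. Its paralog Axin1, which is a scaffold of the same complex but is not known as its target, read from 19.0 to 24.7 in all 12 libraries. In FIBCL it read 21.1, 21.0 and 20.4, with a log2 difference of −0.05 ± 0.05 (SE, limma adjusted p = 0.4) from SCDM.

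Nkd1 and Nkd2, paralogs that bind Dishevelled and restrain the pathway, moved in opposite directions. Nkd1 read 4.66, 4.47 and 5.26 in spheres, 5.01, 5.36 and 6.21 in SCDM, 2.94, 2.88 and 2.51 in SCDM/FGF and 31.3, 34.2 and 33.8 in FIBCL, and it rose by 2.39 ± 0.09 (SE, limma adjusted p = 7.53e-10) on the log2 scale from SCDM. Nkd2 read 22.5, 19.3 and 19.9 in spheres, 24.0, 26.2 and 25.2 in SCDM, 10.0, 8.89 and 11.1 in SCDM/FGF and 1.85, 2.01 and 1.51 in FIBCL, a log2 difference of −3.23 ± 0.10 (SE, limma adjusted p = 9.81e-11) between FIBCL and SCDM. Their FIBCL libraries lay outside the range of the other 9 libraries, Nkd1 above and Nkd2 below. Nkd2 was the more abundant of the pair in each sphere, SCDM and SCDM/FGF library and Nkd1 in each FIBCL library, a comparison that TPM, being per length, allows.

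Sp5, a zinc finger transcription factor induced by Wnt signaling, read 1.30, 1.10 and 1.24 in spheres, 0.0667, 0.103 and 0 in SCDM, 2.33, 3.24 and 2.27 in SCDM/FGF and 9.14, 9.09 and 10.3 in FIBCL. It was near 0 in SCDM, and FIBCL differed by 3.31 ± 0.12 (SE, limma adjusted p = 3.32e-10) from SCDM and by 1.55 ± 0.12 (SE, limma adjusted p = 2.46e-07) from SCDM/FGF. Notum, a secreted enzyme that inactivates Wnt proteins by removing their lipid, read 2.19, 1.86 and 1.07 in spheres, 0.105, 0.168 and 0.151 in SCDM, 0.627, 0.554 and 0.529 in SCDM/FGF and 5.42, 5.06 and 5.81 in FIBCL. The groups did not overlap, and the log2 difference from SCDM was 2.49 ± 0.14 (SE, limma adjusted p = 2.23e-08).

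Znrf3 and Rnf43 are paralogous ubiquitin ligases that remove frizzled receptors. Znrf3 read 2.79, 2.53 and 2.59 in spheres, 1.70, 1.89 and 1.43 in SCDM, 1.69, 2.00 and 1.99 in SCDM/FGF and 5.73, 5.00 and 5.48 in FIBCL, which differed from SCDM by 1.26 ± 0.10 (SE, limma adjusted p = 3.29e-07). Rnf43 read 1.81, 1.59 and 2.24 in spheres, 0.838, 0.981 and 0.557 in SCDM, 2.95, 1.52 and 1.88 in SCDM/FGF and 0.933, 2.01 and 1.29 in FIBCL. The FIBCL values of Rnf43 overlapped those of every other group, and the log2 difference from SCDM was 0.41 ± 0.20 (SE, limma adjusted p = 0.086). Apcdd1, a membrane protein that inhibits Wnt signaling, read 8.00, 8.96 and 8.46 in spheres, 4.11, 4.02 and 4.32 in SCDM, 2.35, 2.96 and 3.23 in SCDM/FGF and 10.6, 9.54 and 10.5 in FIBCL. It rose by 1.12 ± 0.10 (SE, limma adjusted p = 7.61e-07) from SCDM but differed by only 0.24 ± 0.10 (SE, limma adjusted p = 0.0399) from spheres. Without rescaling, the differences of Znrf3 and Apcdd1 from SCDM were 0.95 and 0.77, and that of Znrf3 from SCDM/FGF was 0.88, all under the limit. Deposited TPM of Apcdd1 was lower in FIBCL (8.87, 7.75 and 7.99) than in spheres (9.45, 10.25 and 10.07).

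**Figure D3:**
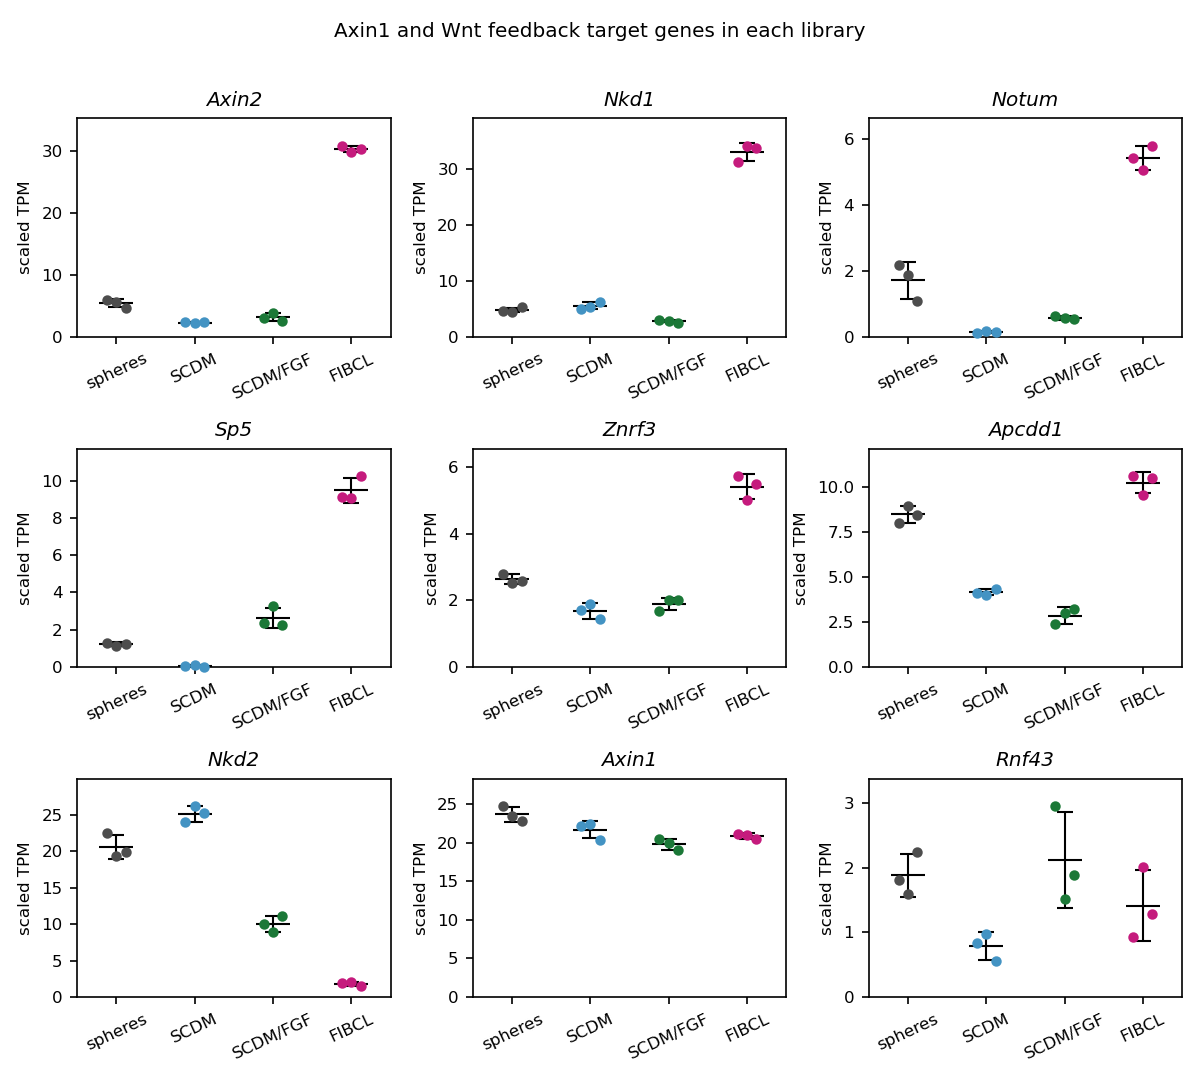
Scaled TPM of Axin1 and the 8 feedback genes in each library, with points for the 3 libraries of a group, a bar for their mean and whiskers for the SD, on linear axes from 0. In FIBCL, Axin2, Nkd1, Notum, Sp5, Znrf3 and Apcdd1 sit above the other 9 libraries, Nkd2 sits below them, and Axin1 and Rnf43 do not separate. Of all genes tested, 23.6% lay above and 27.3% below those 9 libraries. Without rescaling, Apcdd1 was lower in FIBCL than in spheres.

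TCF/LEF factors bind DNA at sequences that hold CTTTGA, with CTTTGAT as a fuller match, and promoters were searched for both. Those of 4 genes that rose in FIBCL are shown, a pair with the short form and a pair without it. The sequences are from RefSeq (GRCm38.p6), which held 50 windows for 40 of the 61 genes, and each window covered 250 bases before and 50 after an annotated start. The 250 bases before the start are printed 5′ to 3′ on the plus strand, on which all 4 genes lie, and capitals mark CTTTGA or its reverse complement TCAAAG. They cover chr2:70474673-70474922 for Sp5, chr7:98834862-98835111 for the first of 2 Wnt11 windows, chr11:108920099-108920348 for Axin2 and chr8:88527383-88527632 for Nkd1.
Sp5: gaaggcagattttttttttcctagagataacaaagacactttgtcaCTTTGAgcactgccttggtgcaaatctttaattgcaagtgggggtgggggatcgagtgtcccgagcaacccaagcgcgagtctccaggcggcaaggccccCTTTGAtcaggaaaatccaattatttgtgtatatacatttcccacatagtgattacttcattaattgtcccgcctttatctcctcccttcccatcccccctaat
Wnt11: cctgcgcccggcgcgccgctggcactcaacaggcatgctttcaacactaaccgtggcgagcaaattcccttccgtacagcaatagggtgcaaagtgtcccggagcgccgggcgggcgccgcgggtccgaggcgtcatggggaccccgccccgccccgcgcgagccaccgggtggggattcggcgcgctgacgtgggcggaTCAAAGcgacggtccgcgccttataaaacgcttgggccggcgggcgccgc
Axin2: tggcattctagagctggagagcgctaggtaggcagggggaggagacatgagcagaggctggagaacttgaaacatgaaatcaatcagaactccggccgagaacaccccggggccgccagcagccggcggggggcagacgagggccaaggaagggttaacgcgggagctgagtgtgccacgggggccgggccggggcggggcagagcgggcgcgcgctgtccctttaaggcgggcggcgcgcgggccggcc
Nkd1: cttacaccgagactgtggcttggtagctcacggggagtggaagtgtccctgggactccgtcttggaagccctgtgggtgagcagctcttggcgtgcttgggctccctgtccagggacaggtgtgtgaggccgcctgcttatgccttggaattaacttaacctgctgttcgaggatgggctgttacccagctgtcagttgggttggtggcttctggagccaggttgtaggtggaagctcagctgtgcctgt
Sp5 had 2 matches, with their first bases at positions −204 and −104 from the start, and Wnt11 had 1 at −50 and none in its second window. Both genes also held the longer CTTTGAT or its reverse complement ATCAAAG. The windows of Axin2 and Nkd1 held neither form, which says only that these letters are not in them. The only Nkd1 window lies before a start inside the gene, which spans chr8:88521354-88594884. The bases before that span were not searched. CTTTGA on either strand was found in 6 of the 40 genes (15.0%) and in 18.2% of all 27025 genes with a window, so the share among the Wnt genes was near that of all genes. CTTTGAT, which is contained in the count for CTTTGA, was found in 3 of 40 (7.5%) and in 4.29% of all genes. Lef1 had 2 matches of the short form, at −180 and −120 from a start inside the gene (upstream bases chr3:131156044-131156293), and none in its other windows. Dkk1 also had 2 and Fzd1 had 1. Wnt5b had 1, likewise before a start inside the gene (upstream bases chr6:119449387-119449636), and none in its other windows.

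None of the TCF/LEF factors rose or fell from SCDM to FIBCL. Lef1 was the most abundant of the 4 in spheres, where it made up 51.8% ± 1.57 (SD, n = 3) of their summed level, and it read 33.6, 32.8 and 31.5. It read 14.0, 11.4 and 10.1 in SCDM, 15.1, 11.3 and 15.4 in SCDM/FGF and 7.87, 7.75 and 9.71 in FIBCL, where its share was 25.9% ± 3.15. Lef1 fell from spheres to each medium, with log2 differences of −1.40 ± 0.14 (SE, limma adjusted p = 5.77e-06) in SCDM, −1.18 ± 0.14 (SE, limma adjusted p = 2.32e-05) in SCDM/FGF and −1.84 ± 0.14 (SE, limma adjusted p = 2.17e-07) in FIBCL, while FIBCL differed from SCDM by −0.44 ± 0.14 (SE, limma adjusted p = 0.0121). Tcf7, also a target of the pathway in other tissues, read 4.15, 3.74 and 3.49 in spheres, 3.97, 3.66 and 4.34 in SCDM, 3.34, 2.59 and 3.34 in SCDM/FGF and 7.47, 7.13 and 6.90 in FIBCL. The FIBCL libraries were above all others, with a log2 difference of 0.71 ± 0.10 (SE, limma adjusted p = 6.22e-05) from SCDM, under the limit of 1, and 1.00 ± 0.10 (SE, limma adjusted p = 3.68e-06) from SCDM/FGF. The latter call rested on single libraries and on the rescaling. The difference was 0.91 without SCDM/FGF replicate 2, 0.98 without FIBCL replicate 1 and 0.73 without rescaling. Tcf7l1, which mainly represses in the absence of β-catenin, read 17.3, 15.4 and 17.7 in spheres, 11.4, 10.1 and 12.1 in SCDM, 9.93, 8.94 and 11.5 in SCDM/FGF and 9.61, 9.87 and 9.20 in FIBCL. Tcf7l2 read 9.94, 9.48 and 10.1 in spheres, 8.35, 7.08 and 7.94 in SCDM, 6.75, 7.43 and 5.98 in SCDM/FGF and 8.51, 6.54 and 7.11 in FIBCL. FIBCL overlapped SCDM/FGF for both genes, with log2 differences from SCDM of −0.20 for Tcf7l1 and −0.07 for Tcf7l2.

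The transcript of β-catenin was the most abundant of the 61, and it varied little. Ctnnb1 read 598, 619 and 631 in spheres, 659, 661 and 643 in SCDM, 606, 594 and 608 in SCDM/FGF and 599, 595 and 607 in FIBCL. The log2 difference between FIBCL and SCDM was −0.12 ± 0.03 (SE, limma adjusted p = 0.00443), and RNA levels say nothing of the β-catenin protein. Lrp5 read 32.5, 35.5 and 31.7 in spheres, 36.7, 36.9 and 34.3 in SCDM, 39.3, 40.0 and 36.9 in SCDM/FGF and 28.9, 27.6 and 29.0 in FIBCL. Lrp6 read 33.6, 29.2 and 32.6 in spheres, 40.2, 44.0 and 42.2 in SCDM, 39.0, 35.1 and 31.8 in SCDM/FGF and 26.8, 22.7 and 26.9 in FIBCL. Both co-receptors were lowest in the FIBCL libraries, with log2 differences from SCDM of −0.33 ± 0.06 (SE, limma adjusted p = 0.000239) for Lrp5 and −0.71 ± 0.09 (SE, limma adjusted p = 1.9e-05) for Lrp6, short of the limit. Without rescaling, the difference of Lrp6 was −1.10 and passed it.

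The summed level of the 19 Wnt ligands was 83.4 to 86.6 in spheres, 75.9 to 78.3 in SCDM, 92.5 to 108 in SCDM/FGF and 101 to 103 in FIBCL, and its make-up differed between groups. Wnt5a, which mostly acts through non-canonical receptors, was 71.8% ± 0.894 (SD, n = 3) of the sum in SCDM, 72.0% ± 0.988 in SCDM/FGF, 47.0% ± 2.14 in spheres and 18.9% ± 0.753 in FIBCL. Wnt11, also known mainly for non-canonical signaling, was 31.7% ± 1.58 in FIBCL and 3.68% ± 1.19 in SCDM. Beside 29.3% of all genes called (13.2% higher and 16.2% lower), 5 of the 11 ligands tested rose from SCDM to FIBCL (Wnt5b, Wnt11 and Wnt7b, with Wnt2 and Wnt4, the latter named after their values were seen) and 2 fell (Wnt5a and, likewise named afterwards, Wnt10b). Of the 5 that rose, Wnt7b and Wnt4 passed the limit of 1 TPM through FIBCL alone and had to differ.

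Wnt5a read 39.5, 38.0 and 42.8 in spheres, 54.8, 56.7 and 54.7 in SCDM, 76.5, 69.8 and 67.6 in SCDM/FGF and 19.9, 19.4 and 18.9 in FIBCL. The 4 groups did not overlap, and FIBCL was the lowest, with log2 differences of −1.47 ± 0.06 (SE, limma adjusted p = 8.18e-10) from SCDM and −1.82 ± 0.06 (SE, limma adjusted p = 1.43e-10) from SCDM/FGF. The difference from spheres, −1.01 ± 0.06 (SE, limma adjusted p = 2.23e-08), lay at the limit and was −0.96 without sphere replicate 3 and −0.98 without FIBCL replicate 3. Its close paralog Wnt5b went the other way from SCDM to FIBCL, reading 4.33, 4.57 and 3.82 in SCDM and 18.03, 16.8 and 18.7 in FIBCL, a log2 difference of 1.85 ± 0.09 (SE, limma adjusted p = 6.21e-09). In spheres Wnt5b read 12.2, 14.9 and 12.7 and in SCDM/FGF 8.26, 7.53 and 7.34. After rescaling, FIBCL was above all other libraries for Wnt5b, but its difference from spheres was only 0.40. Deposited TPM of Wnt5b overlapped between the 2 groups, at 15.07, 13.6 and 14.26 in FIBCL and 14.39, 17.08 and 15.17 in spheres.

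Wnt11 read 0.542, 0.315 and 0.412 in spheres, 2.29, 2.38 and 3.84 in SCDM, 0.725, 0.272 and 1.12 in SCDM/FGF and 30.8, 34.6 and 32.1 in FIBCL, with log2 differences of 3.15 ± 0.19 (SE, limma adjusted p = 3.68e-08) from SCDM and 4.33 ± 0.19 (SE, limma adjusted p = 2.51e-09) from SCDM/FGF. It was the most abundant ligand in each FIBCL library. Wnt7b, which signals through β-catenin in several tissues, was below 1 in all 9 libraries of the other groups (0.105 to 0.715) and read 10.5, 9.13 and 8.36 in FIBCL. The log2 difference from SCDM was 3.15 ± 0.15 (SE, limma adjusted p = 3.66e-09), but Wnt7b was tested only because of its FIBCL levels and had to differ. Wnt6 read 7.07, 4.63 and 3.72 in spheres, 6.57, 6.11 and 5.42 in SCDM, 2.56, 2.58 and 2.15 in SCDM/FGF and 8.83, 7.57 and 10.8 in FIBCL. It rose from SCDM/FGF to FIBCL by 1.54 ± 0.18 (SE, limma adjusted p = 1.29e-05) but differed from SCDM by 0.51 ± 0.18 (SE, limma adjusted p = 0.0258). Among the ligands outside the rule for description, Wnt10b, a canonical ligand, read 17.5, 16.01 and 18.1 in spheres, where it was 20.1% ± 0.843 of the ligand sum, and 1.43 to 2.69 in the SCDM media and 0.0598 to 0.368 in FIBCL. It fell from spheres to each of the 3 media.

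**Figure D4:**
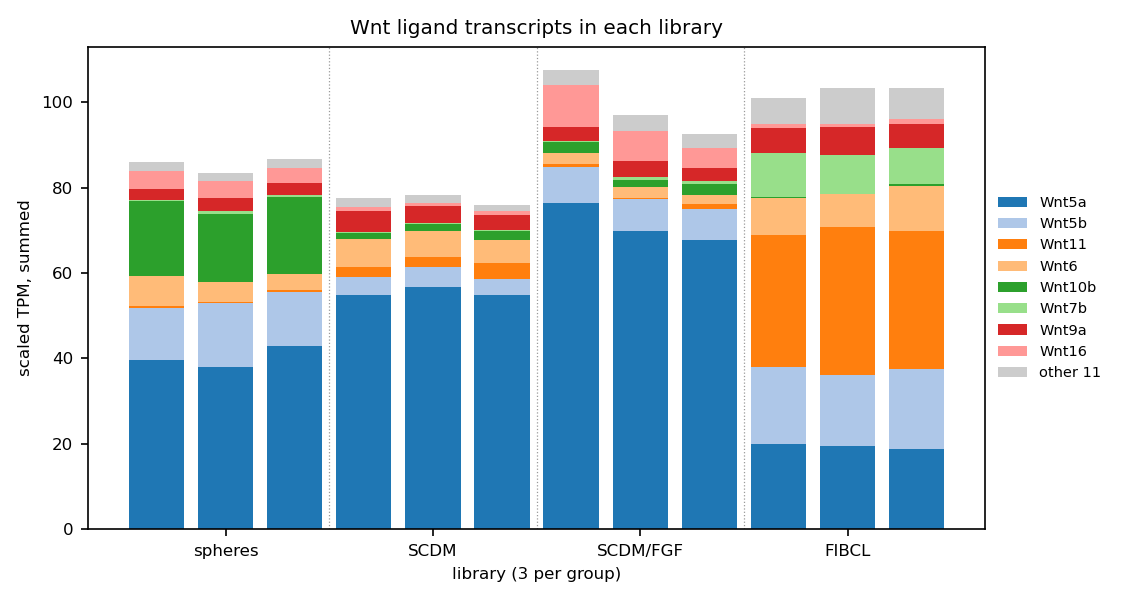
Summed scaled TPM of the 19 Wnt ligands in each library (bars, 3 per group), divided by ligand. Wnt5a makes up most of each SCDM and SCDM/FGF bar, Wnt10b is visible in spheres, and Wnt11, Wnt5b and Wnt7b make up more of each FIBCL bar than of any SCDM bar.

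Of the 9 frizzled receptors tested, 1 rose and 4 fell from SCDM to FIBCL, beside 29.3% of all genes called. Against SCDM/FGF, 3 of the 9 (33.3%) were called, a share near the 27.8% of all genes. Fzd1 was the most abundant in every library and made up 47.4% ± 0.963 (SD, n = 3) of the frizzled sum in spheres and 59.4% ± 1.86 in FIBCL. It read 100.0, 93.5 and 99.8 in spheres, 98.7, 99.1 and 89.6 in SCDM, 83.6, 76.5 and 72.7 in SCDM/FGF and 102, 101 and 105 in FIBCL, with a log2 difference of 0.10 ± 0.06 (SE, limma adjusted p = 0.131) from SCDM that turned to −0.29 without rescaling. Fzd6, which is known for planar polarity, read 1.68, 2.05 and 2.91 in spheres, 5.36, 4.04 and 4.85 in SCDM, 1.35, 2.80 and 2.86 in SCDM/FGF and 28.2, 18.2 and 19.9 in FIBCL. It was the one frizzled that rose from SCDM, by 1.99 ± 0.22 (SE, limma adjusted p = 8.37e-06) from SCDM and 2.80 ± 0.22 (SE, limma adjusted p = 4.49e-07) from SCDM/FGF, and the first FIBCL library was the highest.

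Fzd9, a receptor found in neural progenitors, read 39.1, 41.8 and 36.5 in spheres, 20.6, 19.0 and 18.9 in SCDM, 2.59, 1.31 and 1.98 in SCDM/FGF and 4.00, 5.22 and 4.18 in FIBCL. The log2 difference from SCDM was −1.91 ± 0.14 (SE, limma adjusted p = 2.39e-07), but SCDM/FGF was lower still, and FIBCL differed from it by 0.90 ± 0.14 (SE, limma adjusted p = 0.000154). Fzd2 read 22.5, 21.9 and 21.6 in spheres, 34.7, 32.5 and 34.6 in SCDM, 21.8, 23.6 and 21.9 in SCDM/FGF and 11.2, 11.5 and 11.9 in FIBCL, with a log2 difference of −1.48 ± 0.05 (SE, limma adjusted p = 3.43e-10) between FIBCL and SCDM. Fzd7 read 20.3, 18.9 and 19.2 in spheres, 21.5, 21.1 and 18.8 in SCDM, 15.1, 13.2 and 10.7 in SCDM/FGF and 8.87, 8.40 and 8.89 in FIBCL. Both were lowest in FIBCL, and the log2 difference of Fzd7 from SCDM was −1.14 ± 0.10 (SE, limma adjusted p = 1.18e-06). Fzd8, which fell as well, is outside the rule for description. Of the others, Fzd3, Fzd4 and Fzd5 read from 1.06 to 9.96, and none of them was called between FIBCL and SCDM. Fzd3 differed by 0.95, and by 1.08 with a pseudocount of 0.1.

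Of the 7 R-spondin and Lgr genes, 6 were tested, and from SCDM to FIBCL 3 of them rose (Rspo1, Rspo4 and Lgr6) and 3 fell (Rspo2, Rspo3 and Lgr4), beside 29.3% of all genes called. Rspo4 was among those that passed the limit of 1 TPM through FIBCL alone. Rspo3 made up 65.3% ± 0.426 (SD, n = 3) of their summed level in SCDM and read 51.6, 52.1 and 50.8 there, against 15.3, 15.2 and 15.9 in spheres, 11.7, 14.7 and 10.4 in SCDM/FGF and 0.838, 0.702 and 0.578 in FIBCL. The FIBCL libraries were below all others, with log2 differences of −4.95 ± 0.11 (SE, limma adjusted p = 7.42e-12) from SCDM and −2.95 ± 0.11 (SE, limma adjusted p = 4.15e-10) from SCDM/FGF. Rspo2 read 8.504, 9.63 and 8.83 in spheres and 7.26, 6.55 and 6.33 in SCDM, but 0.216, 0.806 and 0.0712 in SCDM/FGF and 0.108, 0.0862 and 0.197 in FIBCL. Both groups with 100 ng/ml bFGF were low, so that FIBCL differed by −2.77 ± 0.16 (SE, limma adjusted p = 3.18e-08) from SCDM and by −0.24 ± 0.16 (SE, limma adjusted p = 0.222) from SCDM/FGF. Rspo1 had the opposite pattern, reading 5.54, 5.18 and 7.07 in spheres, 1.82, 3.05 and 2.85 in SCDM, 14.9, 15.2 and 9.21 in SCDM/FGF and 13.8, 10.25 and 11.2 in FIBCL. FIBCL differed from SCDM by 1.84 ± 0.20 (SE, limma adjusted p = 6.83e-06) and overlapped SCDM/FGF, with a log2 difference of −0.12 ± 0.20 (SE, limma adjusted p = 0.602). Rspo4, named after its values were seen, was listed at 0 in all 3 SCDM libraries, was at most 0.0610 in spheres and SCDM/FGF and read 3.78, 3.54 and 3.99 in FIBCL.

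The Lgr receptors bind R-spondins. Lgr6 read 0.220, 0.358 and 0.412 in spheres, 1.44, 2.14 and 1.93 in SCDM, 3.67, 3.24 and 3.30 in SCDM/FGF and 16.3, 16.7 and 15.4 in FIBCL. No groups overlapped, and the log2 difference from SCDM was 2.60 ± 0.11 (SE, limma adjusted p = 1.65e-09). Lgr4 read 15.6, 16.4 and 16.6 in spheres, 17.0, 15.2 and 16.1 in SCDM, 12.6, 10.1 and 10.1 in SCDM/FGF and 6.49, 6.42 and 6.82 in FIBCL, a log2 difference of −1.17 ± 0.08 (SE, limma adjusted p = 1.46e-07) between FIBCL and SCDM. Lgr4 was the more abundant of the pair in spheres and both SCDM media and Lgr6 in FIBCL, where it was 41.0% ± 2.55 of the summed level of the 7 genes. Lgr5, a target of the pathway and a progenitor marker in the cochlear epithelium, was at most 0.549 in any library and was not tested. Markers of cochlear epithelium summed to 14.8 to 15.7 in FIBCL and 11.9 to 16.4 in spheres, but Epcam alone was 12.4 to 13.7 in FIBCL and 1.06 to 2.01 in spheres, and the other 6 summed to 1.97 to 2.42 in FIBCL and 10.8 to 14.4 in spheres.

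Among the secreted antagonists, Sfrp4 had the largest difference in size of the 48 tested genes, both from SCDM and from SCDM/FGF to FIBCL. The sum of the 9 antagonists was 84.3 to 91.7 in spheres, 204 to 227 in SCDM, 356 to 454 in SCDM/FGF and 63.1 to 65.2 in FIBCL. Sfrp4, which binds Wnt proteins outside the cell, accounted for 56.0% ± 6.26 (SD, n = 3) of it in SCDM and 85.1% ± 2.30 in SCDM/FGF. It read 6.69, 7.78 and 6.502 in spheres, 134, 133 and 99.7 in SCDM, 398, 343 and 299.8 in SCDM/FGF and 0.850, 0.320 and 0.394 in FIBCL. The groups did not overlap, with log2 differences of −6.34 ± 0.15 (SE, limma adjusted p = 1.93e-11) from SCDM and −7.84 ± 0.15 (SE, limma adjusted p = 4.06e-12) from SCDM/FGF. Sfrp2 read 6.68, 5.56 and 6.03 in spheres, 40.7, 39.6 and 59.4 in SCDM, 1.15, 1.39 and 0.488 in SCDM/FGF and 2.13, 2.06 and 3.32 in FIBCL. It was highest in SCDM, from which FIBCL differed by −3.76 ± 0.21 (SE, limma adjusted p = 1.76e-08), whereas the difference from SCDM/FGF was 0.81 ± 0.21 (SE, limma adjusted p = 0.00452). The third family member tested, Sfrp1, rose in FIBCL to 12.4 to 13.1 from 4.46 to 4.74 in SCDM, and its log2 difference of 1.29 was 0.93 without rescaling.

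Wif1, which also binds Wnt proteins, read 30.2, 32.02 and 27.2 in spheres, 1.69, 2.13 and 1.32 in SCDM, 21.5, 23.1 and 22.7 in SCDM/FGF and 0.215, 0.0369 and 0.355 in FIBCL. SCDM and FIBCL were both low, yet FIBCL was lower than SCDM by a log2 difference of −1.17 ± 0.13 (SE, limma adjusted p = 6.04e-06), and the difference from SCDM/FGF was −4.29 ± 0.13 (SE, limma adjusted p = 9.35e-11). Dkk3, a divergent Dickkopf family member, made up 73.1% ± 1.42 of the antagonist sum in FIBCL and read 45.5, 47.1 and 47.3 there. It read 40.7, 43.2 and 41.3 in spheres, 46.2, 40.6 and 38.5 in SCDM and 26.5, 35.5 and 25.9 in SCDM/FGF, and FIBCL and SCDM overlapped, with a log2 difference of 0.16 ± 0.10 (SE, limma adjusted p = 0.195) that was −0.23 without rescaling. Dkk1, Dkk4 and Sfrp5 were below the limit for testing, and Dkk4 was listed at 0 in all 12 libraries. Sfrp4 was highest in the 2 media whose mesenchymal marker sum was 5280 to 5990 and lowest in FIBCL, whose sum was 61 to 62.1, while Sfrp2 was high in SCDM and low in SCDM/FGF at like sums. The part of mesenchymal cells in these results was not tested.

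**Figure D5:**
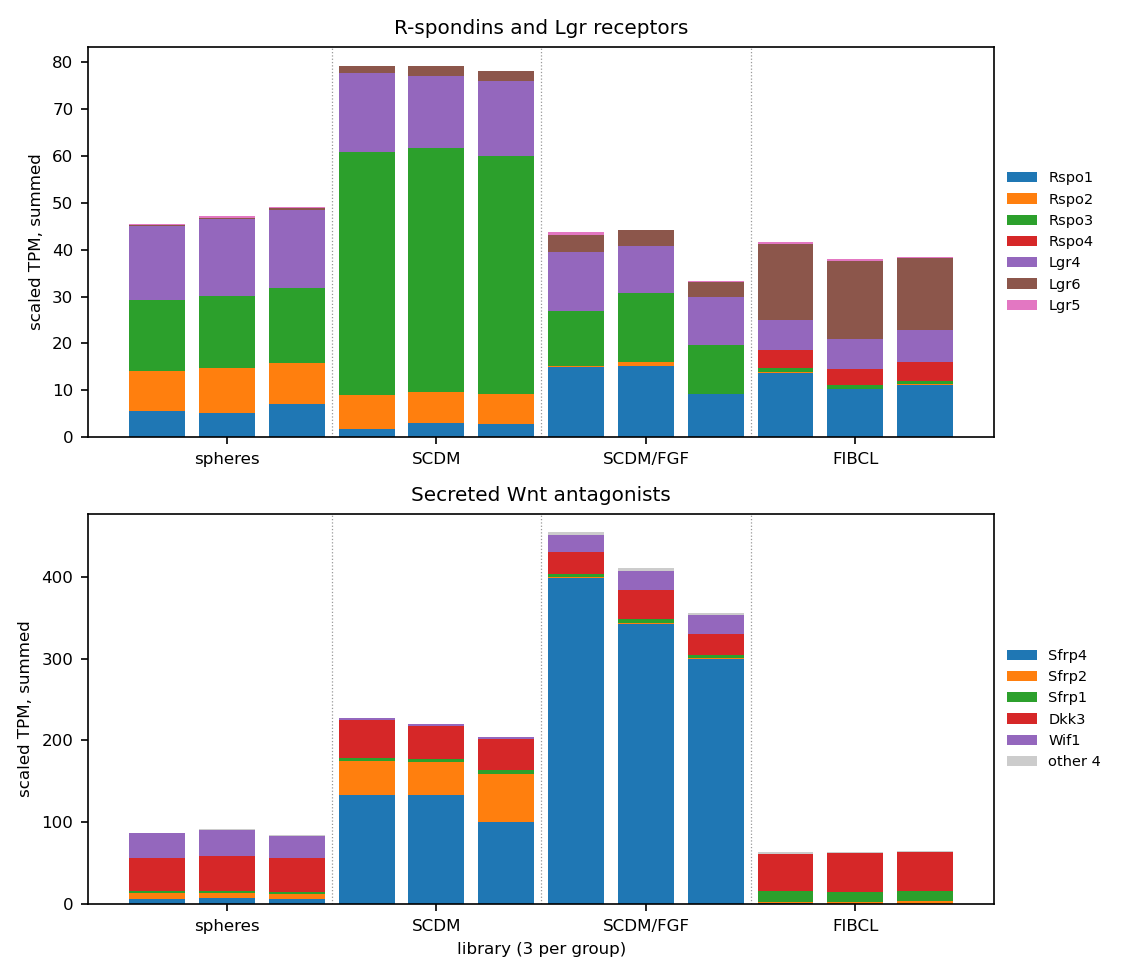
Summed scaled TPM of the R-spondins and Lgr receptors (top) and of the secreted antagonists (bottom) in each library, divided by gene. Rspo3 makes up most of each SCDM bar and Lgr6 is largest in FIBCL, while Sfrp4 dominates SCDM/FGF and Dkk3 remains as most of each FIBCL bar.

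Between groups grown without the small molecules, 12 to 14 of the 48 genes were called. From SCDM to SCDM/FGF, which differ in bFGF alone, 7 rose and 7 fell, beside 9.77% of all genes called. The adjusted p alone passed 35, beside 43.1%. Those that rose were Sp5, Wif1, Rspo1 and Sfrp4 and, outside the rule for description, Wnt16, Wnt2 and Dkk2, of which Dkk2 reached 1 TPM outside SCDM/FGF in 1 library only. Wif1 had a log2 difference of 3.12 ± 0.13 (SE, limma adjusted p = 5.2e-09), Rspo1 of 1.97 ± 0.20 (SE, limma adjusted p = 1.15e-05), Sp5 of 1.77 ± 0.12 (SE, limma adjusted p = 2.59e-07) and Sfrp4 of 1.50 ± 0.15 (SE, limma adjusted p = 1.16e-05). Those that fell were Sfrp2 (−4.57), Fzd9 (−2.81), Rspo2 (−2.53), Rspo3 (−1.99), Nkd2 (−1.25), Wnt11 (−1.18) and Wnt6 (−1.03). The calls of Wnt11 and Wnt6 rested on single libraries. Wnt11 was at −0.997 without SCDM replicate 3 and −0.98 without SCDM/FGF replicate 2, and Wnt6 at −0.98 without SCDM replicate 1 and −0.97 without SCDM/FGF replicate 3. Axin2 differed by 0.33 ± 0.11 (SE, limma adjusted p = 0.0347) and Notum by 0.46 ± 0.14 (SE, limma adjusted p = 0.0222), both under the limit, and Sp5 was the only feedback gene that rose. Markers of pericytes and smooth muscle summed to 228 to 261 in SCDM and 87.4 to 106 in SCDM/FGF. Endothelial markers summed to 8.44 to 8.93 and 36.6 to 40.5, of which Cdh5 alone was 1.04 to 1.55 and 34.3 to 38.7, while the other 4 summed to 7.06 to 7.60 in SCDM and 1.82 to 2.83 in SCDM/FGF. The part of these markers in the differences was not tested.

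From spheres to SCDM, 7 genes rose and 7 fell, beside 12.4% of all genes called (6.94% higher and 5.46% lower). The adjusted p alone passed 36, beside 50.3%. Sfrp4 rose by 3.94 ± 0.15 (SE, limma adjusted p = 4.28e-09), Sfrp2 by 2.72 ± 0.21 (SE, limma adjusted p = 8.43e-07), Rspo3 by 1.67 ± 0.11 (SE, limma adjusted p = 1.7e-07), Wnt11 by 1.41 ± 0.19 (SE, limma adjusted p = 8.43e-05) and Lgr6 by 1.09 ± 0.11 (SE, limma adjusted p = 8.24e-06) on the log2 scale. Fzd4 and Fzd5 also passed, at 1.04 and 1.06, but both fell below 1 without rescaling, and Fzd4 was 0.99 without sphere replicate 1 and 0.999 without SCDM replicate 2. Wif1 fell by 3.51, Wnt10b by 2.72, Wnt5b by 1.45, Lef1 by 1.40, Wnt16 by 1.30, Notum by 1.22 and Sp5 by 1.07. Without rescaling, 5 genes rose and 11 fell. Between spheres and SCDM/FGF there were 6 higher and 6 lower calls, beside 12.1% of all genes (7.39% and 4.73%), and without rescaling 4 and 8. The adjusted p alone passed 35 of the 48, beside 50.4%. Sfrp4 had the highest difference at 5.44 ± 0.15 (SE, limma adjusted p = 4.03e-10) and Fzd9 the lowest at −3.78 ± 0.14 (SE, limma adjusted p = 3.31e-09). Rspo1 was called at 1.00, at the limit, and was 0.89 without SCDM/FGF replicate 2, 0.90 without SCDM/FGF replicate 1, 0.92 without sphere replicate 2 and 0.96 without sphere replicate 1. Fzd4 was likewise 0.98 without SCDM/FGF replicate 1 and 0.99 without sphere replicate 1. For Axin2, the difference from spheres was −0.96 with SCDM and −0.63 with SCDM/FGF, in each case short of the limit. As given above, the macrophage, mesenchymal and cycling sums were higher and the glial sum was lower in both SCDM media than in spheres, in every library, and their part in these differences was not tested.

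Other genes of the pathway were taken from 6 lists, described here by counts beside the 29.3% of all genes called between FIBCL and SCDM. Of the destruction complex and Dishevelled genes, 1 of 17 tested rose and none fell, with Csnk1e, a casein kinase, at 1.35 ± 0.07 (SE, limma adjusted p = 8.64e-09). Both GSK3 genes were tested and neither was called, with log2 differences of −0.38 for Gsk3a and 0.73 for Gsk3b, named here because CHIR99021 inhibits their products. Among 13 nuclear cofactors of β-catenin, the co-repressor Tle3 rose (1.37) and Tle1 (−2.23), also a co-repressor, and Pygo1 (−1.57), a co-activator, fell. Of 8 genes of Wnt secretion and release, none rose and 4 fell, led by Trabd2b (−2.43), a protease that inactivates Wnt proteins, and the proteoglycan Sdc2 (−1.98). Wls and Porcn, named after their values were seen, were not called. Mean Wls was 199.6 in SCDM and 207.1 in FIBCL, and mean Porcn was 9.81 and 8.68.

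Non-canonical receptors and planar polarity genes showed 6 that rose and 2 that fell among 14. The atypical cadherins Celsr3 and Celsr1 rose most, at 2.93 ± 0.14 (SE, limma adjusted p = 4.63e-09) and 2.88 ± 0.15 (SE, limma adjusted p = 1.23e-08), while the receptor Ror1 was at −2.12 and Daam2 at −1.97. Ror2, a receptor of the same family named after its values were seen, went the other way from Ror1. Mean Ror2 was 3.04 in SCDM and 17.27 in FIBCL. Of 14 further antagonists and modulators, 6 rose and 6 fell. Draxin, an axon guidance protein that binds Dcc and antagonizes Wnt, was at 5.04 ± 0.14 (SE, limma adjusted p = 4.84e-11) and Sostdc1 at 1.69, and Shisa3 (−6.63) and Igfbp4 (−6.61) were the lowest. Mean Sostdc1 was 3.40 in FIBCL but higher, at 7.66, in SCDM/FGF. Among 22 other genes often listed as Wnt targets, 13 rose and 3 fell, with a median log2 difference of 1.15 beside −0.07 over all genes. Tnfrsf19, a TNF receptor family member, was at 3.90 ± 0.14 (SE, limma adjusted p = 4.1e-10) and the homeobox gene Msx1 at 2.60, while Ccn4 (−3.77) and Ccn1 (−3.74), which encode matricellular proteins, were the lowest. Genes on this list respond to other signals too.

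The 13 genes not tested were Wnt1, Wnt3, Wnt3a, Wnt7a, Wnt8a, Wnt8b, Wnt9b, Wnt10a, Fzd10, Lgr5, Sfrp5, Dkk1 and Dkk4. The highest level of any of them in a library was 1.34, for Wnt10a in SCDM. Wnt3 read 0.814, 1.32 and 0.959 in FIBCL and at most 0.0262 elsewhere, and Fzd10 read 1.04, 1.24 and 1.09 in FIBCL and 0.385 to 0.678 in spheres. Of the 61 genes, 12 share exon bases with another annotated gene, most often on the opposite strand, and although the methods name an orientation setting for the alignment, no source used here says that counting kept strand, so the values of such pairs are uncertain. The partners were low, at most 3.39 for Ulk4, which overlaps Ctnnb1, and 2.22 for the partner of Wnt5a. One partner, that of Lef1, had no row in the table.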

How the data were processed

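Poly(A) RNA-seq libraries of 12 cultures were grouped by their labels. Per the study's methods and processing notes, the authors aligned reads with TopHat and quantified genes with RSEM, with Cufflinks also named; the methods name an orientation mode for TopHat, but versions, genome build and the strand setting of the counting are not given in the sources used here. The authors deposited TPM with 2 decimals, which keeps no read counts, so no count model was used although the study names EdgeR. Columns headed FIBC were taken as FIBCL because no other group fits the name. The table has no other sample columns.

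The 16016 genes that reached 1 TPM in 3 or more libraries were kept. To rescale a library, its log2 ratios to the mean of all libraries were averaged over the 8434 genes that reached 5 TPM everywhere, with 30% trimmed off each end. The log2(scaled TPM + 1) values of all genes were fitted in limma 3.58.1 (R 4.3.3) with a mean-variance trend, in one model of 4 groups, with Benjamini-Hochberg adjustment within each comparison. The fit was tested on simulated data. Identifiers of all 61 genes matched GENCODE M21, which gave positions. Tables and plots used Python 3.11.15, pandas 2.3.3 and matplotlib 3.10.9.

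Described in full are the feedback and TCF/LEF genes and, in each other role, the 4 genes with the highest mean level and the 2 with the largest called difference between FIBCL and SCDM. In the other pathway lists, the 2 highest and 2 lowest called genes are named. Members and lists were chosen with earlier results of these data known. Of the planned glial markers, 2 are not reported here and were left out of the glial sum and count. Alternatives covered the scaling, filter, pseudocount, thresholds, groups in the fit, a replicate block and each library left out.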

Additional observations from a re-analysis of the deposited data

How the results depend on the processing

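The deposited TPM keeps no depth, cultures of 3 per group set the precision, and the replicate spread may be partly technical. Calls of the 48 tested genes kept to within 1.5 times their number under most alternatives. A log2 limit of 1.5 left 18 calls from SCDM to FIBCL, 5 between SCDM and spheres and 6 between SCDM/FGF and spheres, beside 17.9%, 6.18% and 6.04% of all genes. The adjusted p alone gave 43 calls between FIBCL and spheres, 36 between SCDM and spheres, 35 between SCDM/FGF and spheres and 35 between SCDM/FGF and SCDM. A pseudocount of 0.1 gave 23 between SCDM and spheres, beside 17.5% of all genes. Leaving out each library in turn gave 26 to 29 calls from SCDM to FIBCL, 22 to 27 against SCDM/FGF, 22 to 27 against spheres, 13 to 16 between SCDM and spheres, 10 to 13 between SCDM/FGF and spheres, and 13 to 14 between SCDM/FGF and SCDM. Wnt7b, Wnt4 and Rspo4 were left untested by the limit of 1 TPM whenever a FIBCL library was left out. Labels number the replicates 1 to 3 in each group, but same-numbered libraries did not deviate together (r from −0.12 to 0.10), and a replicate block left the counts at 29, 26, 27, 14, 12 and 14. Without rescaling, the median difference of all genes from SCDM to FIBCL went from −0.07 to −0.40. Differences that changed sign were small and not called in the main analysis. Without rescaling, these were Wnt2b (−0.0204), Wnt16 (−0.19), Dkk3 (−0.23) and Fzd1 (−0.29). With 1 library left out, Tcf7l2 ranged from −0.17 to 0.0021, Wnt2b from −0.0023 to 0.26 and Wnt16 from −0.0612 to 0.0640. The cause of these changes was not tested. No called difference between FIBCL and SCDM changed sign, but Sfrp1 (0.93), Znrf3 (0.95) and Apcdd1 (0.77) fell under the limit without rescaling. In the other comparisons no called difference changed sign, and 4 of 26 calls against SCDM/FGF, 5 of 27 between FIBCL and spheres, 2 of 14 between SCDM and spheres, 2 of 12 between SCDM/FGF and spheres and 2 of 14 between SCDM/FGF and SCDM fell under the limit of 1 in at least 1 alternative, not counting the log2 limit of 1.5 and genes that an alternative left untested.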

Other observations

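The 6 further lists of pathway genes were also counted in the comparisons of FIBCL with its other controls, which share the FIBCL libraries. Between FIBCL and SCDM/FGF, 11 of 22 other Wnt targets rose and 5 fell, and 6 of 14 non-canonical receptor and planar polarity genes rose and 1 fell, beside 27.8% of all genes called. Among 14 further antagonists and modulators, 1 rose and 5 fell in that comparison. Between FIBCL and spheres, 10 of the 22 targets rose and 3 fell, 6 of the 14 planar polarity genes rose and 2 fell, and 4 of 17 destruction complex and Dishevelled genes fell and 1 rose, beside 28.1% of all genes. Between SCDM/FGF and SCDM, 4 of the 14 further antagonists rose and 1 fell, beside 9.77% of all genes.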
